A study of Mus musculus with 6 samples.

Results

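The data describe 9 genes of the leukemia inhibitory factor (LIF) pathway in mouse embryonic stem cells: the receptor genes Lifr and Il6st, the kinase genes Jak1 and Jak2, the transcription factor gene Stat3 and its targets Socs3, Pim1, Junb and Spp1. They were taken by gene symbol from the deposited tables, where they occupy 10 of 62490 loci, and each of the 9 was found among 49377 gene names. RNA was sequenced from blastocyst-derived C57BL/6J cells of the genotype Mll1fl/fl; Cre-ER TM, which carry floxed alleles of the histone methyltransferase gene Mll1 and a tamoxifen-inducible Cre. The groups were cells given 1 µM 1α,25-dihydroxyvitamin D3 (VD3, the hormonally active vitamin D) plus the MLL1 inhibitor MM-401 at 100 µM for 5 days, cells given 1 µM VD3 for 5 days, and untreated cells. Cells of every group carried the floxed alleles and the Cre, the labels name no tamoxifen, and none of the groups received MM-401 alone. Every group grew on mouse embryonic fibroblast feeder cells in medium with added LIF, so the pathway was supplied with its ligand throughout. The labels list serum and serum replacement media for all groups and no time for untreated cells, so a difference in either cannot be told apart from treatment.

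LIF binds the LIF receptor, encoded by Lifr, which pairs with gp130, encoded by Il6st. Janus kinases bound to both chains phosphorylate STAT3, which enters the nucleus and activates genes that hold mouse embryonic stem cells in self-renewal. SOCS3, itself a STAT3 target, binds gp130 and the kinases and shuts the signal down. The tables give RNA levels, and phosphorylation of these proteins was not measured.

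The labels name 2 libraries for each of the 3 groups, yet the tables hold 1 pooled column per group, so the differences lack a check over libraries and no test was possible. The columns of the untreated and VD3 plus MM-401 pools were matched to their groups by a shared part of their names, and the rest of those names is not explained. The pools held 62284598 to 73636342 estimated counts. Levels are FPKM, fragments scaled to transcript length and library size, given with the lower and upper confidence bounds that the authors deposited. A log2 difference is that of FPKM + 1 unless another scale is named, and a relative log2 difference is taken against the median gene of the comparison. That median lay at 0.27 for VD3 plus MM-401 against untreated, 0.36 for VD3 against untreated and 0.02 for VD3 plus MM-401 against VD3. CPM is the estimated count scaled to the pool total. The median ratio of FPKM per count between pools was 1.0, so the estimated counts already shared the library scale of FPKM. CPM therefore scales them a second time and is not an independent scale. The comparisons share pools and are not independent. In bulk RNA, fewer cells of a type and less RNA per cell cannot be told apart.

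By FPKM, Stat3 and Socs3 were highest in the VD3 pool, Junb was higher in both treated pools than in untreated cells, Il6st and Jak1 were lowest with VD3 plus MM-401, and Jak2 was lowest with VD3. These differences were below 2-fold on the log2 scale of FPKM + 1. Of the 9 genes, 7 reached the minimum of 5 FPKM in the higher pool, and Lifr and Jak2 did not. Of these 7, 0 differed 2-fold in VD3 plus MM-401 against untreated, where 19.6% of all 10966 genes above the minimum did. The count was also 0 in VD3 against untreated, where 12.2% of 10911 genes differed 2-fold, and 0 in VD3 plus MM-401 against VD3, where 6.68% of 10717 did. Relative to the median gene, Il6st passed the 2-fold threshold in VD3 plus MM-401 against untreated, at -1.12. It was at -0.49 by CPM and -0.58 after adjustment for GC content and transcript length, with intervals of 0 to 186 and 0 to 264. The share of all genes past the threshold relative to the median gene was not counted. The authors' intervals of a pair of pools lay apart for 1 of the 9 genes, Jak2, in VD3 against untreated. Among all 14693 genes of at least 1 FPKM, 5.36% had intervals apart in that comparison, 1.1% higher and 4.26% lower. The count was 0 of the 9 in VD3 plus MM-401 against untreated, where 6.57% of 14819 genes had intervals apart, 3.71% higher and 2.86% lower. It was also 0 in VD3 plus MM-401 against VD3, where 1.57% of 14683 did, 0.892% higher and 0.681% lower.

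The levels of the genes spanned a wide range. Spp1 was the highest of the 9 in each pool, at rank 368 of 14052 genes of at least 1 FPKM with VD3 plus MM-401, 367 of 13960 with VD3 and 213 of 13957 in untreated cells. With VD3 its interval (277 to 571) overlapped that of Socs3 (0 to 287), the next gene. In the other pools it was apart from that of the next gene. Pim1, Socs3, Il6st and Stat3 followed in changing order, and the intervals of neighbours in that order overlapped in every pool. Junb and Jak1 came next, also with overlapping intervals. Lifr and Jak2 were the lowest. Their intervals were apart from each other in all 3 pools, and the interval of Lifr overlapped that of its upper neighbour, Jak1, with VD3 plus MM-401.

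**Figure D1:**
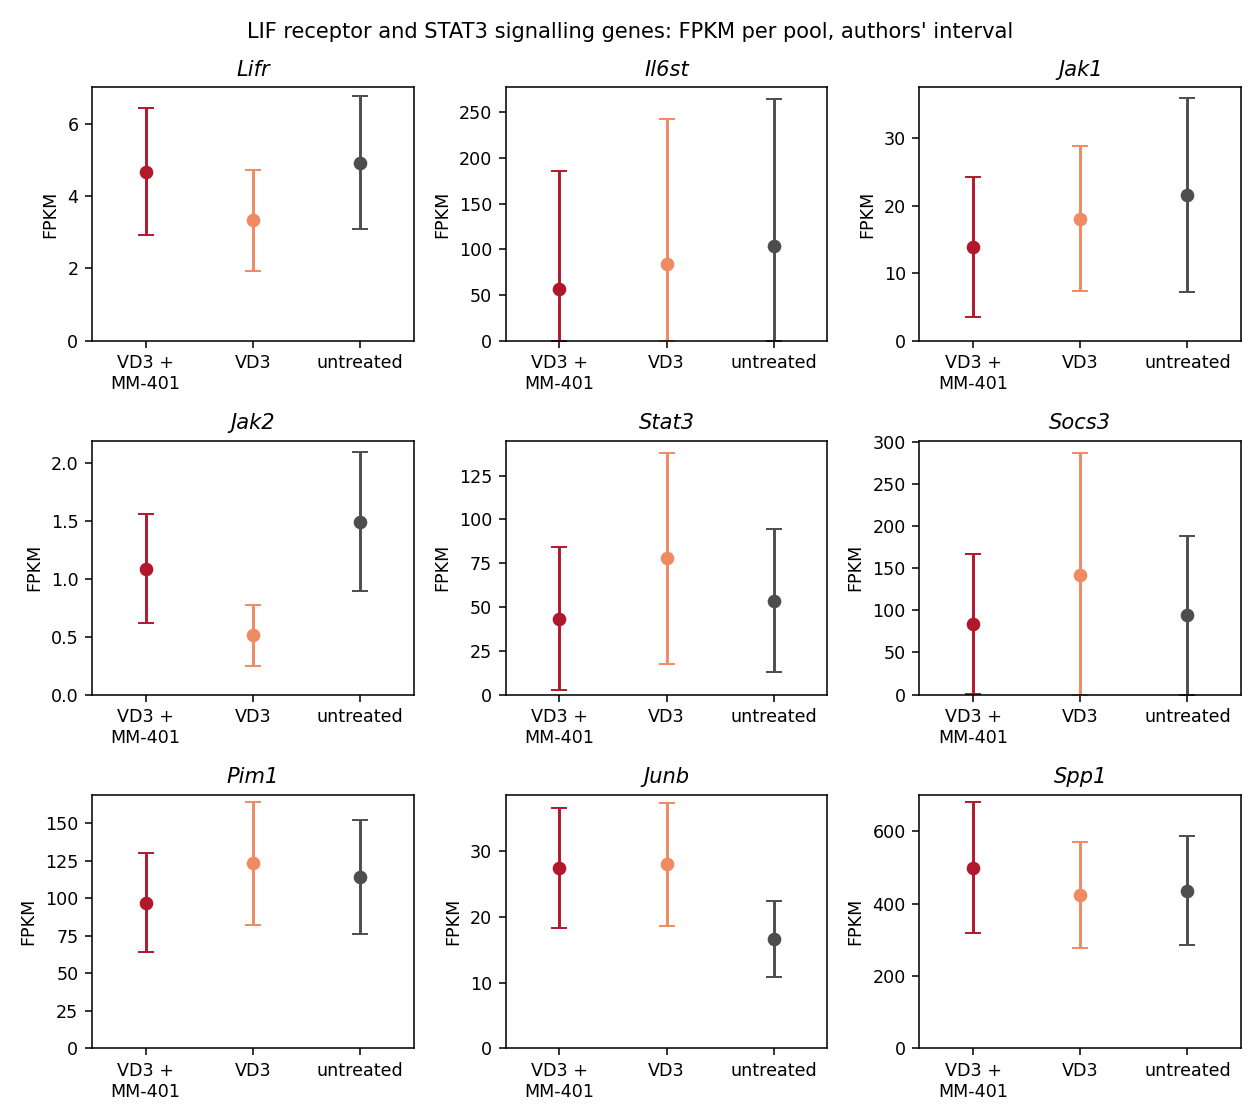
FPKM of each of the 9 genes (y axis, separate scale per gene, starting at 0) in the VD3 plus MM-401, VD3 and untreated pools (x axis), with points for the deposited value and bars for the authors' confidence bounds. The bars of Jak2 are apart between VD3 (0.25 to 0.772) and untreated (0.892 to 2.1), while those of Il6st and Socs3 reach down to 0 or near it in every pool.

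Lifr (chromosome 15, 7090614 to 7197489, plus strand, mm10), the ligand-binding chain that makes a cell responsive to LIF, stood at 4.66 FPKM with VD3 plus MM-401 (authors' interval 2.91 to 6.42), 3.34 with VD3 (1.94 to 4.73) and 4.92 in untreated cells (3.09 to 6.76). Its estimated counts were 2694, 1816 and 2944 in the same order of pools. The VD3 pool was thus the lowest on both scales, and the 3 intervals overlapped. The log2 difference was -0.07 for VD3 plus MM-401 against untreated, -0.45 for VD3 against untreated and 0.38 for VD3 plus MM-401 against VD3.

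Il6st (chromosome 13, 112464070 to 112510086, plus strand), which encodes the signal-transducing chain shared by the interleukin-6 family of cytokines, stood at 56.75 FPKM with VD3 plus MM-401 (0 to 186), 84.3 with VD3 (0 to 243) and 103 in untreated cells (0 to 264). By FPKM the pools thus ran lowest to highest from both agents to untreated. Its counts, 5592, 8002 and 6665 in that order, put the VD3 pool highest. The log2 difference for VD3 plus MM-401 against untreated was -0.85, or -1.12 relative to the median gene, and -0.49 by CPM. For VD3 against untreated it was -0.29 by FPKM and 0.02 by CPM, so these scales differ in sign.

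Jak1 (chromosome 4, 101152367 to 101265282, minus strand) and Jak2 (chromosome 19, 29251828 to 29313080, plus strand) encode kinases that sit on the cytoplasmic tails of these receptors. Jak1 stood at 13.9 FPKM with VD3 plus MM-401 (3.53 to 24.3), 18.1 with VD3 (7.34 to 28.8) and 21.6 in untreated cells (7.24 to 35.9). Its log2 differences were -0.60 for VD3 plus MM-401 against untreated and -0.24 for VD3 against untreated, and -0.54 and -0.26 by CPM. All 3 intervals overlapped. Jak2 was far lower, at 1.09 FPKM with VD3 plus MM-401 (0.621 to 1.56), 0.511 with VD3 (0.25 to 0.772) and 1.49 in untreated cells (0.892 to 2.1). Its counts were 365, 171 and 502 in that order, with standard deviations from the authors' model of 78.5, 43.6 and 101. Jak2 was 2.92-fold lower with VD3 than in untreated cells by FPKM, with intervals apart, as were 4.26% of genes in the lower direction. The log2 difference was -0.72, where the added 1 weighs on so low a level, and -1.45 by CPM. With VD3 plus MM-401 it was 2.13-fold higher than with VD3, with overlapping intervals.

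Transcript composition moved with the differences between pools. In VD3 against untreated, GC content and transcript length accounted for 53.7% of the variance of the log2 difference over 8797 protein-coding genes (genes are no replicates). The longest coding transcripts of Lifr and Jak2 have 9655 and 5030 bases and a GC content of 44.4% and 44.3%, while that of Junb has 1809 bases and 62.6%. After subtraction of what a fit on both properties gives, the log2 difference in VD3 against untreated was 0.19 for Lifr and -0.37 for Jak2. By CPM it was -0.91 for Lifr before that adjustment and 0.14 after it, and -1.45 and -0.77 for Jak2. The adjusted value of Lifr was thus of the opposite sign, and that of Jak2 was smaller in size and still negative.

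Stat3 (chromosome 11, 100885098 to 100939540, minus strand), the transcription factor that the receptor activates, stood at 43.4 FPKM with VD3 plus MM-401 (2.80 to 84.0), 77.7 with VD3 (17.2 to 138) and 53.5 in untreated cells (12.6 to 94.5). Its counts were 7693, 10919.7 and 7324 in that order. VD3 was the highest pool on both scales, and the intervals overlapped. The log2 difference was 0.53 in VD3 against untreated, 0.17 relative to the median gene and 0.33 by CPM. It was -0.30 in VD3 plus MM-401 against untreated and -0.83 in VD3 plus MM-401 against VD3, or -0.17 and -0.50 by CPM.

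Socs3 (chromosome 11, 117966079 to 117970047, minus strand) encodes the feedback inhibitor of the receptor and is often used as a direct readout of STAT3 activity. Its promoter and that of Junb, another early target, are shown because they are the targets with the largest log2 differences among the 4 in VD3 against untreated. The windows run from 250 bases before to 50 after the RefSeq start (GRCm38.p6, minus strand for both), at chr11:117969317-117969616 for Socs3 and chr8:84978699-84978998 for Junb. The Socs3 window lies within the gene span given above, which comes from another annotation, and the Socs3 locus has 4 start-site groups. Capitals mark TTCNNNGAA, a STAT-binding palindrome that reads the same on both strands.
Socs3: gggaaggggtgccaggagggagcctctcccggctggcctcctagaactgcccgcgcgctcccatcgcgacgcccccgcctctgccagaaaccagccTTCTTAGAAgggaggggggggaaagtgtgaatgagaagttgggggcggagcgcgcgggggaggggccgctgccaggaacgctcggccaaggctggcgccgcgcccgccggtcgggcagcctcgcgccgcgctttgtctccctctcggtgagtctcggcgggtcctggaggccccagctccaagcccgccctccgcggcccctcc
Junb: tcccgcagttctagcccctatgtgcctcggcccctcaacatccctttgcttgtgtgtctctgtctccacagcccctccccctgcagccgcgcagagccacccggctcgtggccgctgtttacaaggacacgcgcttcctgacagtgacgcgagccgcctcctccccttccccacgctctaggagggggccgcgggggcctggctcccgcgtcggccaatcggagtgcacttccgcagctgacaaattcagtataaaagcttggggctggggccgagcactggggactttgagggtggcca
All 9 genes matched the RefSeq table, with 12 promoter windows. The Socs3 window, with its match TTCTTAGAA lying 154 to 146 bases before the start, was the 1 window of the 12 that holds the letters, and 8.3% of all 32851 promoter windows of this length hold them. A match is a description of the letters and not a measured binding site.

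Socs3 stood at 83.95 FPKM with VD3 plus MM-401 (1.16 to 167), 142.5 with VD3 (0 to 287) and 94.5 in untreated cells (0 to 189). VD3 was the highest pool, and the intervals of all pools overlapped over most of their length. The counts were 8629, 9784 and 6514 in that order, so by count the untreated pool was the lowest, and by FPKM the VD3 plus MM-401 pool was. The log2 difference in VD3 plus MM-401 against untreated was -0.17 by FPKM and 0.17 by CPM. In VD3 against untreated it was 0.59, and 0.34 by CPM, with 0.02 left after adjustment for GC content and length.

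Pim1 (chromosome 17, 29490753 to 29496112, plus strand), a serine/threonine kinase gene that promotes survival and self-renewal, stood at 96.9 FPKM with VD3 plus MM-401 (64.1 to 130.0), 123 with VD3 (82.0 to 164) and 114 in untreated cells (75.9 to 152). Its log2 differences were -0.23 in VD3 plus MM-401 against untreated and 0.11 in VD3 against untreated. By CPM they were -0.47 and -0.13, and after adjustment for GC content and length -0.72 and -0.48, so the sign for VD3 turned on both. The turn by CPM came from the scaling to pool totals. The counts, 16636, 21137 and 19595 in the same order of pools, kept the order of FPKM. Relative to the median gene the log2 differences were -0.50 and -0.26, so both treated pools stood below it. The intervals of the 3 pools overlapped.

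Junb (chromosome 8, 84974484 to 84978718, minus strand), an AP-1 transcription factor gene that responds early to LIF, stood at 27.5 FPKM with VD3 plus MM-401 (18.3 to 36.6), 28.0 with VD3 (18.7 to 37.3) and 16.7 in untreated cells (10.9 to 22.4). The treated pools lay close to each other and above untreated, and their lower bounds lay below the upper bound of the untreated pool. Its counts were 3111, 3171 and 1886 in that order. The log2 difference was 0.69 in VD3 plus MM-401 against untreated and 0.72 in VD3 against untreated, or 0.42 and 0.35 relative to the median gene. After adjustment for GC content and length it was 0.20 and 0.31. A second locus with the name Junb was listed at 0 in every pool and adds nothing to these values.

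Spp1 (chromosome 5, 104435118 to 104441050, plus strand) encodes osteopontin, a secreted phosphoprotein whose gene is a known vitamin D receptor target in bone. Its locus also carries the name Gm42793. It stood at 499.8 FPKM with VD3 plus MM-401 (319 to 681), 424 with VD3 (277 to 571) and 435 in untreated cells (285 to 586). The pools overlapped over most of their intervals. The log2 difference was 0.20 in VD3 plus MM-401 against untreated and -0.04 in VD3 against untreated. Relative to the median gene it was -0.07 and -0.40, and by CPM -0.03 and -0.28. In VD3 plus MM-401 against VD3 it was 0.24 by FPKM and by CPM and -0.11 after adjustment for GC content and length. The counts, 42571, 36035 and 36901 in the same order of pools, kept the order of FPKM. Vdr, the vitamin D receptor gene, was below 1 FPKM in each pool, as were 4 of the 5 genes of the vitamin D receptor list, and S100g was at 0.

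**Figure D2:**
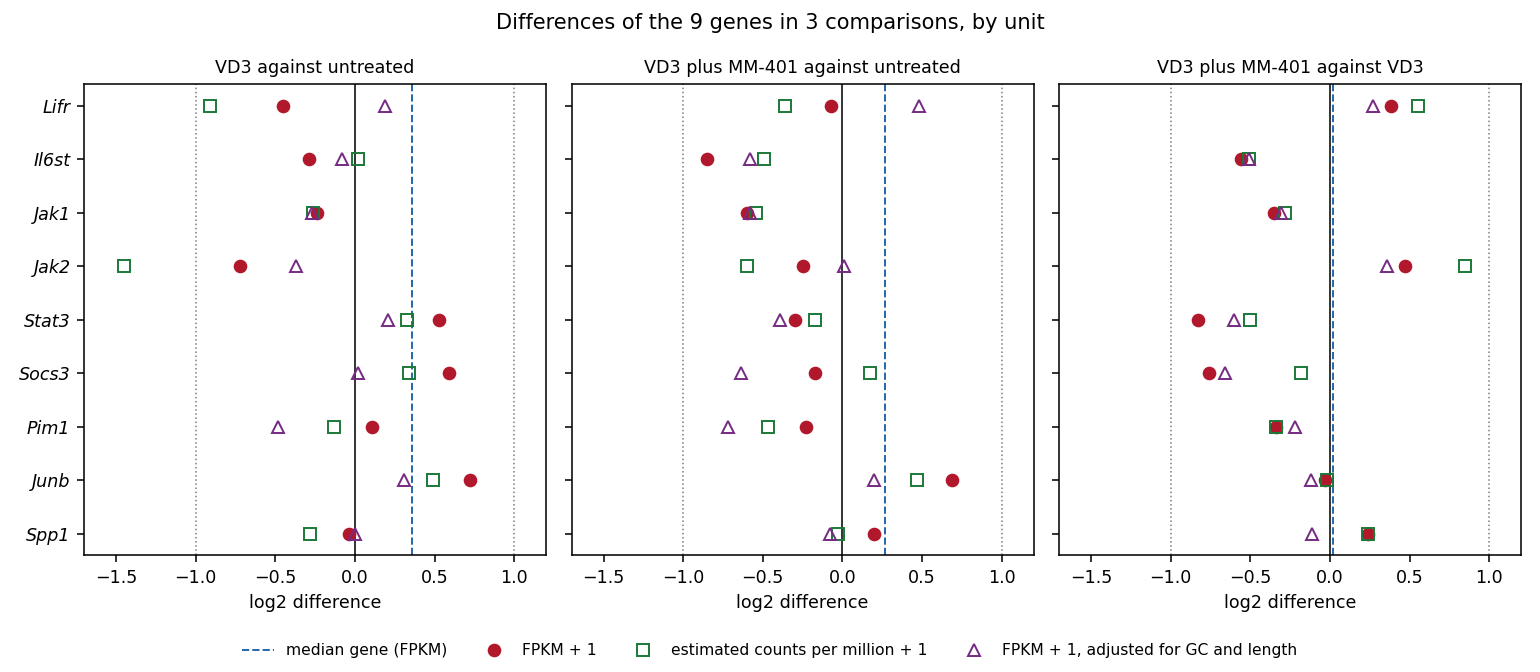
Log2 difference (x axis) of each of the 9 genes (y axis) in the 3 comparisons, by FPKM + 1 (filled circles), by estimated CPM + 1 (squares) and by FPKM + 1 after adjustment for transcript GC content and length (triangles), with dotted lines at a 2-fold difference and a dashed line at the median gene. No filled circle lies beyond a dotted line, the square of Jak2 in VD3 against untreated lies at -1.45, and Socs3 in VD3 plus MM-401 against untreated lies at -0.17 by FPKM and 0.17 by CPM.

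FPKM and counts ordered the pools differently for some genes, and for these the FPKM per count also moved between pools. For Pim1 it was 5.83 FPKM per 1000 counts in each pool, and for Junb it was 8.83 in each. For Socs3 it was 9.73 with VD3 plus MM-401, 14.6 with VD3 and 14.5 in untreated cells. The change of Socs3 between VD3 plus MM-401 and untreated, to 0.671 of the untreated value, lay at percentile 2.24 of the 9781 genes with over 500 counts in each pool. For Il6st it was 10.1, 10.5 and 15.5 FPKM per 1000 counts in the same order of pools. Its ratios to untreated, 0.654 with VD3 plus MM-401 and 0.679 with VD3, lay at percentiles 1.95 and 0.797. Stat3 was at 5.64, 7.12 and 7.31 and Jak1 at 3.28, 3.48 and 4.09. The tables do not divide these loci by isoform. The number of start-site groups the table lists was 10 for Stat3, 5 for Il6st, 4 for Socs3 and 3 each for Jak1 and Lifr, against 2 for Jak2, Pim1 and Spp1 and 1 for Junb.

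In untreated cells the authors' intervals were wider for Il6st, Socs3, Stat3 and Jak1, each with at least 3 start-site groups, than for the other 5 genes. Width did not rise with the number of groups, as Stat3, with 10, lay below Il6st, with 5, and Socs3, with 4. Lifr had a narrow interval. With 3 groups, its upper bound lay 37.3% above the FPKM. In untreated cells the upper bound lay 155% above the FPKM for Il6st, 100.0% for Socs3, 76.5% for Stat3 and 66.5% for Jak1, and between 33.5% and 40.3% for the other 5 genes. The standard deviation of the count, by the authors' model, was 16.2% to 20.1% of the count for all 9 genes in that pool. The genes at the centre of the pathway, gp130, STAT3 and SOCS3, are therefore those of the 9 with the widest interval for their FPKM. Division of the counts by the pool total lowers every difference from untreated by the ratio of totals, which is 0.24 on the log2 scale for both treated pools. As the counts already shared the library scale of FPKM, this offset sets CPM apart from FPKM even where the counts do not.

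**Figure D3:**
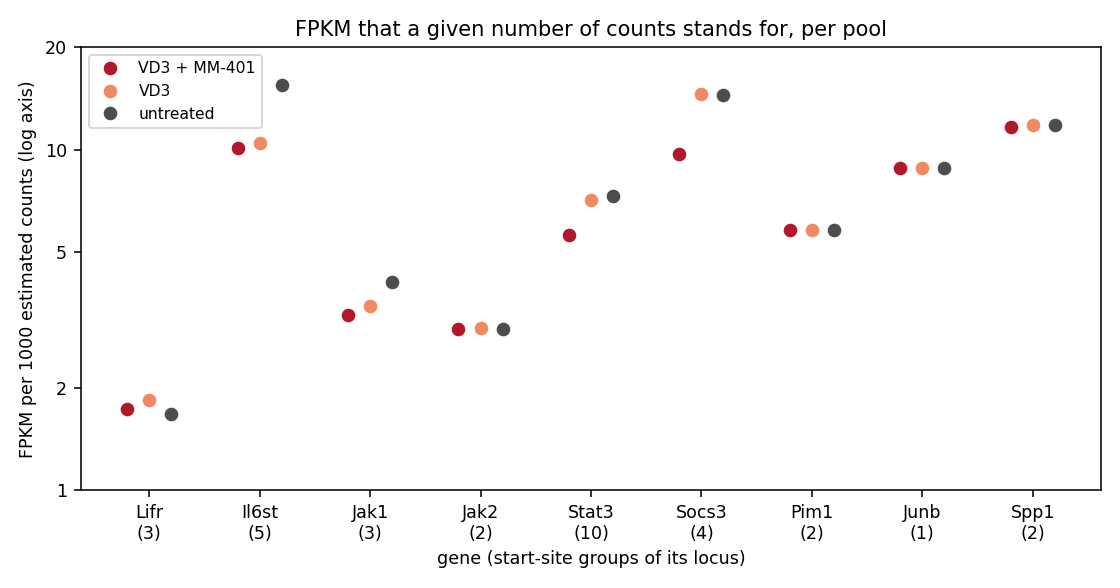
FPKM per 1000 estimated counts (y axis, log scale) of each of the 9 genes (x axis, with the number of start-site groups of its locus in brackets) in the VD3 plus MM-401, VD3 and untreated pools. The points of Pim1, Junb, Jak2 and Spp1 lie level across pools, Socs3 is low with VD3 plus MM-401 (9.73), and Il6st is high in untreated cells (15.5).

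The wider pathway was described from a list of 57 genes by role, on 56 loci. The genes of at least 5 FPKM numbered 43 in VD3 plus MM-401 against untreated, with 3 called higher and 0 lower by 2-fold. Over all genes 13.4% were higher and 6.24% lower in that comparison. In VD3 against untreated, 4 of 42 were higher and 1 was lower, with 3.54% and 8.7% over all genes. In VD3 plus MM-401 against VD3, 0 of 42 were called in either direction, with 4.67% higher and 2.02% lower over all genes. The median log2 difference of the list was 0.09 against 0.27 for all genes in VD3 plus MM-401 against untreated, 0.49 against 0.36 in VD3 against untreated, and -0.28 against 0.02 in VD3 plus MM-401 against VD3. The minimum keeps genes that are high in at least a single pool of the pair, so these counts describe the list and carry no support.

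Among ligands, Lif itself stood at 4.35 FPKM with VD3 plus MM-401, 6.36 with VD3 and 3.49 in untreated cells, with overlapping intervals. Il6 was at 0 in every pool. The ligand locus with the highest level was that of Cntf, at 22.4 FPKM in untreated cells, which it shares with Zfp91. Among the receptors, Cntfr, the ciliary neurotrophic factor receptor that also signals through gp130 and the LIF receptor, stood at 46.4 FPKM with VD3 plus MM-401 (22.0 to 70.8), 68.3 with VD3 (36.7 to 99.8) and 32.5 in untreated cells (18.4 to 46.6). Its log2 difference in VD3 against untreated was 1.05, with overlapping intervals, and 0.75 by CPM. Il11ra1, a receptor of interleukin-11, was at 5.46, 4.10 and 2.05 FPKM in the same order, with a log2 difference of 1.08 in VD3 plus MM-401 against untreated, 0.61 by CPM, and a lower bound of 0 in each pool. Osmr and Il6ra stayed below 1 FPKM.

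Of the other kinases and STATs, the locus shared by Jak3 and Insl3 was at 5.65 FPKM with VD3 plus MM-401, 3.18 with VD3 and 1.82 in untreated cells, a log2 difference of 1.24 between both agents and untreated and of 0.49 by CPM. Tyk2, another Janus kinase gene, was at 8.24, 11.6 and 8.40 FPKM in that order. None of the 5 STAT loci of at least 5 FPKM was 2-fold apart from untreated. Stat6 was at 21.7, 39.3 and 25.9 FPKM, and Stat5b at 3.17, 3.20 and 5.20.

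Among the 16 inhibitors, 14 reached 5 FPKM in comparisons with untreated. Socs4, a SOCS family gene, was the 1 lower gene in VD3 against untreated, at 3.03 FPKM with VD3 plus MM-401 (1.94 to 4.13), 2.40 with VD3 (1.54 to 3.27) and 7.06 in untreated cells (4.72 to 9.41). The intervals of both treated pools were apart from that of untreated cells. The log2 difference of Socs4 was -1.24 in VD3 against untreated and -0.999, just short of the threshold, in VD3 plus MM-401 against untreated. After adjustment for GC content and length it was 0.19 and 0.01. Cish, which encodes a SOCS family protein, was at 7.90, 11.5 and 4.01 FPKM, with a log2 difference of 1.31 in VD3 against untreated and 0.49 by CPM. Ptpn6, which encodes the phosphatase SHP-1, was at 41.9, 57.8 and 20.1 FPKM. Its log2 differences of 1.03 in VD3 plus MM-401 and 1.48 in VD3 against untreated came to 0.17 and 0.24 by CPM, from counts of 1968, 2065 and 1472.

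The 18 target genes had 17 members of at least 5 FPKM, and 11 of them stood above the median gene in VD3 against untreated and 8 in VD3 plus MM-401 against untreated. In VD3 plus MM-401 against VD3, 4 stood above it and 13 below. Icam1, a cell adhesion molecule gene, was the 1 target called, at 56.6 FPKM with VD3 plus MM-401 (37.5 to 75.7), 62.5 with VD3 (41.4 to 83.7) and 30.4 in untreated cells (19.7 to 41.0). Its intervals were apart in VD3 against untreated, with a log2 difference of 1.02. Over all genes 3.54% were called higher in that comparison, and 1.1% had intervals apart and higher. The difference of Icam1 was 0.66 relative to the median gene, 0.79 by CPM and 0.42 after adjustment for GC content and length, all below the threshold. The related kinase genes differed from Pim1 in their order of pools. Pim2 was at 46.4, 47.8 and 25.3 FPKM and Pim3 at 87.4, 101 and 58.2, both lowest in untreated cells and with overlapping intervals. Klf4, a pluripotency factor gene downstream of STAT3, was at 63.0, 62.6 and 76.2 FPKM, highest in untreated cells. Tfcp2l1, another STAT3 target of self-renewal, was at 127, 228 and 128 FPKM with lower bounds of 0, and its log2 difference in VD3 against untreated was 0.83 by FPKM, 0.04 by CPM and 1.12 after adjustment for GC content and length, past the 2-fold threshold on that scale alone. After adjustment for GC content and length the median of the targets was 0.02 in VD3 against untreated and -0.02 in VD3 plus MM-401 against untreated.

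**Figure D4:**
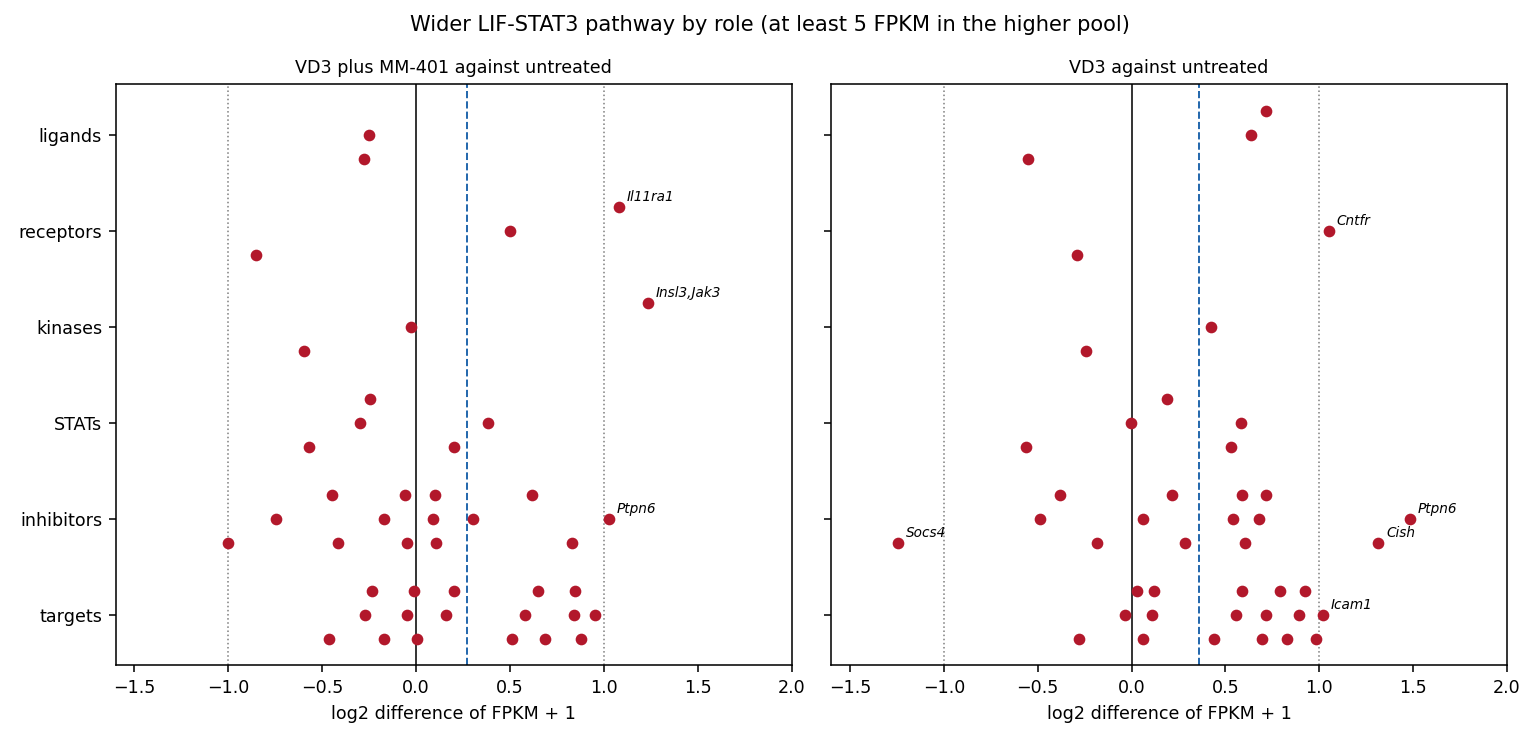
Log2 difference of FPKM + 1 (x axis) of wider pathway genes of at least 5 FPKM in the higher pool, by role (y axis; vertical offsets within a role are for legibility), in VD3 plus MM-401 against untreated and in VD3 against untreated, with dotted lines at 2-fold and a dashed line at the median gene. Named points are past 2-fold: 3 higher in the first panel, and 4 higher and Socs4 lower in the second.

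Markers of the stem cells and of other cells were set beside these values. Embryonic stem cell markers summed to 5620.0 FPKM with VD3 plus MM-401, 4430.0 with VD3 and 2850.0 in untreated cells, and 0 of 8 were below 1 FPKM. Most of the difference between these sums lay in Pou5f1, at 1830.0, 2050.0 and 1110.0 FPKM in the same order, and in the locus shared by Dppa5a and Gsta2, at 2090.0, 959 and 628. The Dppa5a locus was the 1 marker called higher with VD3 plus MM-401, against untreated and against VD3. Its log2 differences were 1.73 (0.94 by CPM, intervals apart) and 1.12 (0.57 by CPM, intervals overlapping). Over all genes 13.4% and 4.67% were called higher in these comparisons. Sox2, at 195, 163 and 157 FPKM, and Zfp42, at 30.9, 26.7 and 26.4, differed less. After adjustment for GC content and length the median of the list was -0.08 in VD3 plus MM-401 against untreated and 0.16 in VD3 against untreated. These medians leave out the Dppa5a locus, which had no adjusted value.

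Of 14 feeder fibroblast markers 7 stayed below 1 FPKM in every pool, among them the collagen genes Col1a1 and Col1a2, and Lum was at 0. Their sum was 25.8 FPKM with VD3 plus MM-401, 36.0 with VD3 and 24.3 in untreated cells. The 2 that reached 5 FPKM were Thy1, at 9.41, 13.8 and 7.46 FPKM, and Tgfbi, at 6.14, 6.84 and 3.44, both lowest in untreated cells. Below 5 FPKM the markers were divided. Fbn1, at 2.15, 2.1 and 1.18, and Loxl1, at 2.53, 2.82 and 2.27, were lowest in untreated cells. Col3a1, at 0.553, 3.93 and 4.19, and Pdgfrb, at 0.358, 0.529 and 0.565, were lowest with VD3 plus MM-401. The interval of Col3a1 there lay below those of untreated and VD3, as for 2.86% and 0.681% of genes. The counts of Col3a1 were 23.3, 10.7 and 13.8, highest in that pool. Of 8 primitive endoderm markers 2 stayed below 1 FPKM, with none at 0, and the sum was 505, 633 and 442 FPKM in the same order, mostly from Sparc at 471, 575 and 394. The 3 members of at least 5 FPKM, Sparc, Lama1 and Col4a1, were highest in the VD3 pool, as Stat3 and Socs3 were by FPKM. Lama1 was at 5.54, 8.07 and 5.62 FPKM and Col4a1 at 22.8, 42.0 and 35.1. Members below that minimum were divided. Gata6, at 0.344, 0.588 and 1.01 FPKM, and Dab2, at 3.59, 4.3 and 4.43, were highest in untreated cells. Sox17, at 0.319, 0.201 and 0.203, was highest with VD3 plus MM-401. Gata4, at 1.43, 2.44 and 2.01, and Foxa2, at 0.154, 0.209 and 0.108, were highest with VD3. Of 6 macrophage markers 5 stayed below 1 FPKM, and Adgre1 and the locus of Lyz1 and Lyz2 were at 0. Their sum of 16.5, 24.1 and 16.0 FPKM was nearly all Cd68, at 16.4, 24.0 and 15.9. The part of these cells in the values of Stat3, Socs3 and Spp1 was not tested.

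Of the 11 immediate early genes, which cell handling can induce as it can Junb, 8 reached 5 FPKM, and all 8 stood above the median gene in both treated pools against untreated. They summed to 315 FPKM with VD3 plus MM-401, 317 with VD3 and 194 in untreated cells, with none at 0. Ier3 was the 1 of the 8 called higher in VD3 plus MM-401 against untreated, where 13.4% of all genes were, and it was at 0.81 by CPM and 0.12 adjusted, below the threshold on both. Atf3 was the 1 called higher in VD3 against untreated, where 3.54% were, and it was at 0.90 by CPM and 0.67 adjusted, also below it. After adjustment the medians of the 8 were 0.05 and 0.12 in these comparisons. Their part in the values of Junb and Socs3 was not tested.

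Genes with a pattern like that of Stat3, Socs3 and Spp1 were sought among 8964 protein-coding genes by the distance over the log2 differences of both treated pools from untreated, that is over 3 pools. Nearest to Stat3 were Uhrf1, Surf4 and Rnf187, at distances of 0.017, 0.028 and 0.031, and 35 genes lay within 0.1. Nearest to Socs3 were Tstd2, Gps1 and Narf, at 0.0018, 0.010 and 0.017, with 44 genes within 0.1. Nearest to Spp1 were Hdac8, Abcd3 and B3galnt2, at 0.018, 0.022 and 0.024, with 91 genes within 0.1. With so few pools, likeness of this kind was not particular to the named genes, as 35 to 91 of the 8964 lay within 0.1.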

How the data were processed

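RNA from 6 libraries in 3 groups was measured. The submitters' processing notes name Cufflinks 2.2.1, TopHat2 2.1.1, SAMtools 1.5 and mm10. No source used here gives roles, settings or strand use, so reads of overlapping or antisense genes may be shared. The deposited tables give FPKM with confidence bounds of unstated level, and estimated counts, which need not be whole, with their variance, in 1 pooled column per group. The untreated and VD3 plus MM-401 columns were matched by the part of their names that the group's titles share, and another meaning would change every comparison. The tables' 6 columns of variance components were not used. Left out were 14 loci without a valid status and 11771 without a name (0.36% of untreated counts). Loci sharing a name were summed, as were bounds.

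The design foresaw edgeR for columns per library and, for pooled columns, log2 ratios of FPKM with a pseudocount of 1 and no test, which was used. A gene was called at 2-fold if its higher pool reached 5 FPKM. GC content and length, from the longest coding transcript of GENCODE vM21, which also gave coordinates (GRCm38, that is mm10), entered a quadratic fit over protein-coding genes, tested on simulated data. Named were the 9 genes, wider-list genes past 2-fold, the highest of each role, the 3 genes nearest to Stat3, Socs3 and Spp1, and others chosen after their values were seen. The members, lists and rules were chosen with earlier results of these data known. Alternatives were CPM, centring, pseudocounts of 0.1 and 5, other minimums, interval separation and the adjustment for GC content and length. Python 3.11.15, numpy 2.4.6, pandas 2.3.3 and matplotlib 3.10.9 were used.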

Additional observations from a re-analysis of the deposited data

How the results depend on the processing

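No paired analysis was possible because each group has 1 pooled column; for the same reason no library could be left out. The sign of a single gene's difference turned in 12 of 135 alternatives: 6 of 27 after adjustment for GC content and length, 4 of 27 by CPM and 2 of 27 when centred, in Lifr, Il6st, Jak2, Socs3, Pim1 and Spp1. None of those differences was past 2-fold. By CPM, the turns of Pim1 and Spp1 came from the scaling to pool totals, as their counts kept the order of FPKM. The authors' bounds are too wide to show stability. Jak2 in VD3 against untreated was at -1.45 by CPM and -1.38 with a pseudocount of 0.1. For FPKM + 1 its bounds gave -1.31 to -0.09. Those bounds are on another scale, so these values cannot be set against them. The 27 levels were the same from the largest single locus.

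The median of the 7 genes, 0.11 in VD3 against untreated, was -0.26 centred on the median gene and 0.00 adjusted for GC content and length; in VD3 plus MM-401 against untreated, -0.23, it was -0.50 and -0.58. The count of genes called was 0 except for Jak2 in VD3 against untreated (1 lower by CPM, and 1 with a pseudocount of 0.1, both without a minimum, alternatives chosen after seeing the data) and Il6st in VD3 plus MM-401 against untreated (1 lower when centred).

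For the wider pathway in VD3 against untreated, 4 genes were higher, against 0 by CPM, 1 when centred, with a pseudocount of 5 or with intervals apart, and 2 when adjusted. Those 2, Socs6 and Tfcp2l1, are not among the 4, of which 0 passed after adjustment. Socs4 was the 1 lower gene, and the count was 0 with a pseudocount of 5 or adjusted. In VD3 plus MM-401 against untreated, 3 were higher, against 0 by CPM, centring, a pseudocount of 5, adjustment or intervals apart. The count of lower genes was 0, against 1 by CPM or a pseudocount of 0.1, 3 when centred (Il6st, Socs4 and Pias3) and 2 when adjusted (Ctf1 and Pias3). In VD3 plus MM-401 against VD3 the adjustment gave 1 lower gene, Ctf1. Without a minimum, 352 genes in place of 216 were lower in that comparison. Except where the scale itself is the change, the cause was not tested. Depth limits Jak2, at 171 to 502 counts.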
